A study of Homo sapiens with 12 samples.

Results

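The 10 genes described here encode dual-specificity phosphatases that feed back on MAP kinases: DUSP1, DUSP2, DUSP4, DUSP5, DUSP6, DUSP7, DUSP8, DUSP10, DUSP14 and DUSP16. They were chosen by name, from their known role in that feedback and with earlier results of these data known. They are 10 of the 33093 genes kept from the count table. RNA-seq covered 12 samples of HEK293T cells, a line derived from human embryonic kidney, in 4 groups of 3. Untreated WT cells and WT cells given 10 ng/ml TNFα for 3 h were set beside NFKB1 S80A cells under the same conditions. The S80A cells carry an edited NFKB1 gene in which the codon for a serine of p50, an NF-κB subunit, codes for alanine. They were made with CRISPR/Cas9 and a single-stranded DNA template, puromycin selection and isolation of single-cell clones by serial dilution. The number of clones sequenced is not stated, so the substitution and differences between clones cannot be told apart. The study describes the 3 samples of a condition as generated independently.

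MAP kinases such as ERK, JNK and p38 become active when a kinase above them phosphorylates a threonine and a tyrosine close together, and dual-specificity phosphatases remove both phosphates. Many of these phosphatases are themselves transcribed when MAP kinases are active, which closes a negative feedback loop. TNFα is known to activate JNK and p38 along with NF-κB. The family is usually sorted by place and substrate. DUSP1, DUSP2, DUSP4 and DUSP5 are inducible enzymes of the nucleus, DUSP6 and DUSP7 act on ERK in the cytoplasm, and DUSP8, DUSP10 and DUSP16 prefer JNK and p38. DUSP14 is a small enzyme that lacks the kinase-binding domain of the others.

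TNFα raised 3 of the 10 genes in both genotypes, DUSP1, DUSP8 and DUSP16, while 0.577% of all genes tested were called higher in WT cells and 0.966% in S80A cells. The bases before their transcript starts are shown because these are the members that moved together. Of the 10 genes, 8 matched an entry of the RefSeq promoter table used, in GRCh38.p14. All 3 genes lie on the minus strand, and the 250 bases printed run 5′ to 3′ towards the gene, at chr5:172771196-172771445 for DUSP1, chr11:1572272-1572521 for DUSP8 and chr12:12562864-12563113 for DUSP16. Capitals mark every match, on either strand, to 5 motifs: the cAMP response element (CRE) TGACGTCA, its short form TGACG, the AP-1 motif TGANTCA, the TATA box TATAAA and the κB consensus.
DUSP1: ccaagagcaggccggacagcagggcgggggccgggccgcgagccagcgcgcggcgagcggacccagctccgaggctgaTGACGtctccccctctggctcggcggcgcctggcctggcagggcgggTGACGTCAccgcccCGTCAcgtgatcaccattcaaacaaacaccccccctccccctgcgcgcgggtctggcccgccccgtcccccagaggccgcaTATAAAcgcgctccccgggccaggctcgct
DUSP8: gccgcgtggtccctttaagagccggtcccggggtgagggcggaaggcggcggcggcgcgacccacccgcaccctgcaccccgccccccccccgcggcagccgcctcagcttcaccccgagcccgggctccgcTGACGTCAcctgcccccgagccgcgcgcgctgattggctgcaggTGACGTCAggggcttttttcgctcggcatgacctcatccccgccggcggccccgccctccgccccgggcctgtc
DUSP16: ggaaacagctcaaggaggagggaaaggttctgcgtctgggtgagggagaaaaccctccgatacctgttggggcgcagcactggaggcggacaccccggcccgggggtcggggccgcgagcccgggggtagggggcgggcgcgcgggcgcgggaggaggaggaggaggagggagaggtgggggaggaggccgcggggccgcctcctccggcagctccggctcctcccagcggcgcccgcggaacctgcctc
The full CRE reads the same on both strands, and each full match contains 2 matches to the short form.

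The DUSP1 window held 1 full CRE, starting 125 bases before the transcript start, 2 further short forms starting 172 and 111 bases before it, and a TATA box starting 30 bases before it. The DUSP8 window held 2 full CREs, starting 118 and 74 bases before the start, and no short form outside them. None of the 5 motifs was found in the DUSP16 window. Of 35116 RefSeq windows of this length, 1.65% held the full CRE, 21.2% the short form, 6.57% the AP-1 motif, 10.7% the TATA box and 5.21% the κB consensus. The 3 windows were rich in G and C, at 74.4% for DUSP1, 76.8% for DUSP8 and 74.8% for DUSP16. The shares above cover windows of any G and C content, and sequence further upstream was not searched. None of the 5 motifs lay wholly upstream of DUSP2, DUSP6, DUSP7, DUSP10 or DUSP14 in windows of the same length. Such a match describes letters in a window, and whether any factor binds there was not tested.

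**Figure D1:**
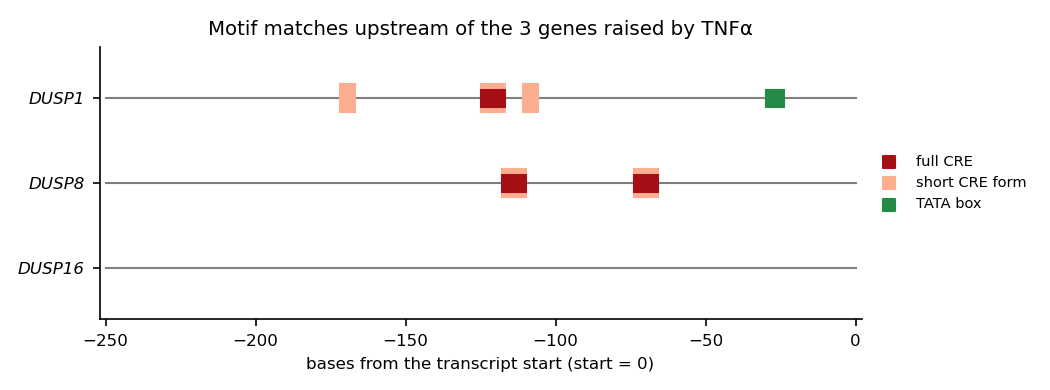
Positions of motif matches in the 250 bases before the transcript start of DUSP1, DUSP8 and DUSP16, with the distance from the start in bases on the x axis and 1 line per gene. Red boxes are full CREs, pale boxes short forms and the green box a TATA box: DUSP1 has 1 full CRE, DUSP8 has 2, and the DUSP16 line is empty.

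The libraries held between 15624878 and 20889577 counted reads, with medians of 18199915 in untreated WT cells, 19120630 in treated WT cells, 19364317 in untreated S80A cells and 17436444 in treated S80A cells. Replicate 2 of the untreated S80A cells stood apart. It lay at -34.9 on the second principal component, where all other samples lay between -10.8 and 20.6. Its counts differed from those of replicates 1 and 3 of its group by a chi-square per gene of 38.23 and 22.39, against 2.90 to 16.29 for the other pairs of replicates. Its total of 15847479 reads was close to the lowest, and sizes of the 10 genes that rest on its group are given with and without it, as are list genes whose call changed without it. Each library's deviations from its group mean were also set against the GC content of the genes. The correlation was strongest in treated WT cells, at 0.528 for replicate 3 and -0.406 for replicate 2. All 10 phosphatase genes passed edgeR's filter on low counts, which left 14383 genes for the tests. Between 6 and 19 reads per sample fell on DUSP6, the thinnest of the set, which passed the filter through its S80A samples. DUSP6 also shares exonic bases with a long noncoding RNA on the opposite strand, and the strand option of the read counter is not stated, so some reads of either gene could be counted for the other.

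HEK293T cells are known to express neuronal intermediate filaments, and 6 of 6 marker genes of the line passed the filter, with VIM the most abundant. NEFM, a neurofilament gene of that list, had 1774 to 2165 reads in the 6 WT samples and 3 to 6 reads in the 6 S80A samples. It therefore passed the filter through the WT samples alone. The 6 markers summed to 679 to 907 CPM, counts scaled to a common library total, in WT samples and 519.6 to 794 CPM in S80A samples. Markers of blood cells summed to at most 2.51 CPM, those of endothelial cells to at most 0.168 CPM and those of hepatocytes to at most 0.375 CPM, with PTPRC and CD3E at 0 in all 12 samples. The 4 fibroblast markers, mainly COL1A1, summed to 14.9 to 17.0 CPM in WT samples and to 6.60 to 8.53 CPM in S80A samples. In edgeR's test NEFM and COL1A1 were the marker genes that differed between the genotypes, both lower in S80A cells in untreated and treated samples. EYA1 passed too in untreated cells without the library that stood apart, at 0.39 on the log2 scale with an adjusted p of 0.0453, and LHX1 in treated cells, at -0.98 with 0.0235. VIM rose by 0.42 with TNFα in S80A cells with an edgeR adjusted p of 0.0319. In WT cells it stood at 0.35 (interval 0.16 to 0.54) with 0.149, and passed with 0.00837 without the library that stood apart. By DESeq2, with all samples, VIM passed in WT cells too, at 0.34 with an adjusted p of 0.0376, and so did EYA1 between untreated genotypes, at 0.35 with 0.049. The interaction of VIM, 0.07 in edgeR and 0.19 without the library that stood apart, did not pass in either fit. The part of these marker differences in the phosphatase differences between genotypes was not tested. In edgeR's quasi-likelihood test, 0 of 5 stress genes passed in any comparison, and DESeq2 called 0 as well. At an unadjusted p under 0.05 edgeR found 1 of them in treated S80A against treated WT cells and 0 in the other comparisons. That gene, HSPH1, passed at -0.19 with an edgeR adjusted p of 0.0471 without the library that stood apart.

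Per length of transcript, in CPM per kb, DUSP14 and DUSP7 were the most abundant of the 10 in untreated WT cells, at 26.3 to 27.6 and 18.3 to 18.7. DUSP1, the classical inducible nuclear phosphatase, followed at 8.68 to 9.08 CPM per kb, and DUSP16, a JNK and p38 phosphatase, at 7.03 to 7.39. DUSP2, an ERK phosphatase best known from activated immune cells, stood at 1.88 to 2.41 CPM per kb. DUSP8, DUSP10 and DUSP5 followed at 0.857 to 0.9, 0.712 to 0.951 and 0.764 to 0.818 CPM per kb, ranges that overlap for DUSP10 with both of the others. DUSP4 lay at 0.356 to 0.442 and DUSP6 at 0.092 to 0.106 CPM per kb. With TNFα, the ranges of DUSP1 and DUSP7 came close in WT cells, at 15.1 to 16.5 against 17.0 to 18.0 CPM per kb, and overlapped in S80A cells, at 17.2 to 18.8 against 17.9 to 23.4. Treated S80A cells also had DUSP8, at 2.08 to 2.67 CPM per kb, above DUSP2, at 0.793 to 1.56, while in treated WT cells the ranges of the pair overlapped, at 1.90 to 2.01 and 1.49 to 2.23.

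**Figure D2:**
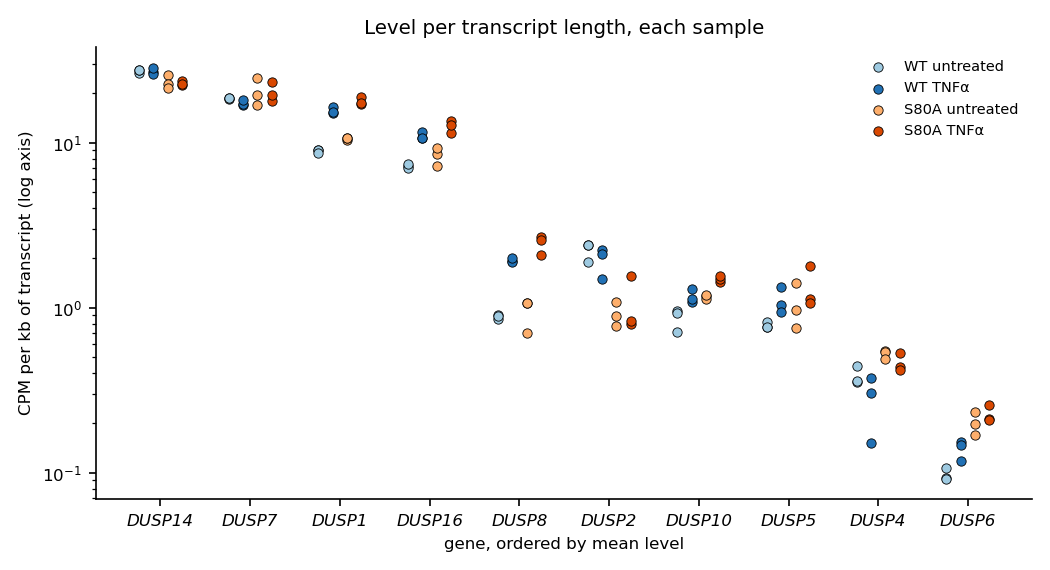
Level of each of the 10 genes in CPM per kb of transcript (y axis, logarithmic), with genes along the x axis in order of their mean and 1 point per sample, coloured by group. DUSP14 has the highest mean, at 25.0 CPM per kb over the 12 samples, and DUSP6 the lowest, at 0.165.

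DUSP1, DUSP8 and DUSP16 together made up 25.9%, 25.1% and 25.3% of the summed CPM per kb of the 10 genes in the 3 untreated WT samples. In treated WT samples their share was 37.6%, 37.7% and 35.2%. Untreated S80A samples gave 25.6%, 31.3% and 32.3%, and treated S80A samples 38.6%, 42.9% and 40.9%. The treated samples of each genotype lay above all untreated samples of that genotype. The summed level ran from 63.4 to 73.3 CPM per kb in untreated and from 75.9 to 85.3 in treated samples. These shares describe genes picked out by their response and carry no test.

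DUSP1 removes phosphate from p38, JNK and ERK in the nucleus and is a textbook immediate-early gene. Its normalised counts, which are counts scaled to a common library size, were 336, 339 and 324 in the untreated WT samples and 618, 565 and 572 in the treated WT samples. In S80A cells they were 389, 394 and 397 without TNFα and 703, 641 and 646 with it. Every treated sample lay above every untreated one, and within each treatment the 3 S80A samples lay above the 3 WT samples. DUSP8, a JNK and p38 phosphatase known from brain and heart, had normalised counts of 76.6, 80.5 and 79.4 in untreated and 171, 169.9 and 180.1 in treated WT samples. In S80A cells it had 94.5, 62.5 and 94.6 untreated, the lowest being the sample that stood apart, and 239, 230.1 and 186 treated. Treated and untreated samples did not overlap in either genotype, and the treated S80A samples all lay above the treated WT samples. Further rows of the count table are named for copies of DUSP8 and DUSP14 and hold 0 reads in all samples, so reads shared with near-identical copies may be missing from the counts of these genes.

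DUSP16, which shuttles between nucleus and cytoplasm and prefers JNK, had normalised counts of 896, 868 and 913 in untreated and 1321, 1429 and 1309.6 in treated WT samples. In S80A cells it had 896, 1058 and 1148 untreated and 1407, 1672 and 1562 treated. The treated samples were the high ones in both genotypes, without overlap, while the genotypes overlapped within each treatment. DUSP10, which also acts on JNK and p38 and is known as a brake on inflammatory signalling, ran from 34.2 to 45.6 in untreated WT, 51.9 to 62.2 in treated WT, 54.1 to 57.3 in untreated S80A and 68.7 to 75.1 in treated S80A samples. Its treated samples lay above the untreated ones of the same genotype, and its S80A samples above the WT ones of the same treatment.

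DUSP2 had normalised counts of 74.5, 75.1 and 58.8 in untreated and 69.5, 46.4 and 65.6 in treated WT samples. In S80A cells it had 27.8, 33.6 and 24.3 untreated and 48.8, 24.8 and 25.8 treated. All untreated S80A samples lay below all untreated WT samples, and after TNFα replicate 1 of the S80A cells reached into the WT range. The remaining inducible nuclear members are DUSP4 and DUSP5. DUSP4, which acts on ERK and JNK, ran from 15.6 to 45.6 in WT and from 42.9 to 56.5 in S80A samples. DUSP5, a nuclear phosphatase specific for ERK, ran from 35.1 to 61.7 in WT and from 34.7 to 82.3 in S80A samples, with replicate 1 the highest in both S80A groups.

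DUSP6, the main cytoplasmic phosphatase of ERK, ran from 6.19 to 10.4 normalised counts in WT and from 11.3 to 17.2 in S80A samples, and these 6 and 6 samples did not overlap. DUSP7, its close relative, ran from 1059 to 1166 in WT and from 1062 to 1539 in S80A samples, with replicate 1 again the highest of each S80A group. DUSP14, which is known to act on the TAK1 and TAB1 complex downstream of the TNFα receptor, ran from 711 to 779 in WT and from 582 to 699.7 in S80A samples, also without overlap. In edgeR's main test DUSP1, DUSP8, DUSP10, DUSP6 and DUSP14 did not pass between the genotypes, untreated or treated. Of all genes, 19.7% untreated and 22.3% treated had an unadjusted p under 0.05 in that test. The share of all genes whose groups do not overlap was not counted.

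**Figure D3:**
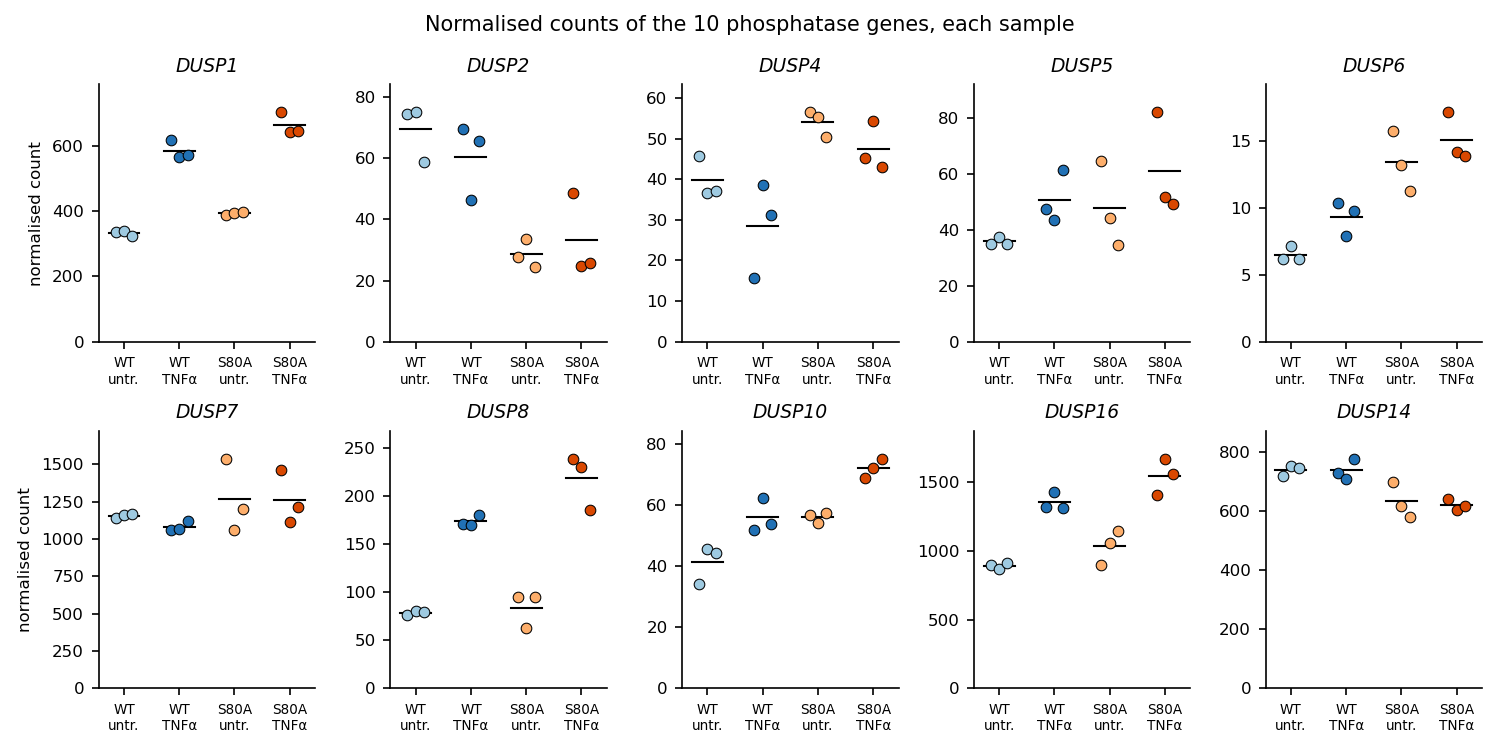
Normalised counts of each of the 10 genes (y axis, from 0), with the 4 groups along the x axis, 1 point per sample and a black line at the mean of 3. DUSP1, DUSP8 and DUSP16 are higher in every treated sample than in every untreated sample of the same genotype, and DUSP2 is lower in the untreated S80A samples than in the untreated WT samples.

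The first comparison asks which phosphatase genes TNFα moved in WT cells. It raised 3 of the 10, where 0.577% of the 14383 genes tested were called higher, by the quasi-likelihood test of edgeR with p-values adjusted after Benjamini and Hochberg. DUSP8 rose 2.20-fold, from 78.8 ± 2.01 to 174 ± 5.55 normalised counts (SD, n = 3 a group). Its log2 fold change was 1.14 ± 0.16 (SE), with a 95% interval of 0.80 to 1.47. DUSP1 rose 1.75-fold, from 333 ± 8.14 to 585 ± 28.7, a log2 fold change of 0.81 ± 0.08 with an interval of 0.64 to 0.99. DUSP16 rose 1.52-fold, from 892 ± 22.7 to 1353 ± 65.9, a log2 fold change of 0.60 ± 0.10 with an interval of 0.40 to 0.81. The edgeR adjusted p was 0.00113 for DUSP8, 6.07e-05 for DUSP1 and 0.00502 for DUSP16, and 3 of 3 treated samples lay above the untreated mean for each. Bulk RNA does not tell apart a change in every cell and a change in the share of cells that respond.

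Among the 7 genes that did not pass in WT cells, log2 fold changes ran from -0.47 for DUSP4 to 0.51 for DUSP6. DUSP10 came closest, at 0.43 (interval 0.08 to 0.78), with an edgeR adjusted p of 0.621. DUSP5 stood at 0.50 (-0.06 to 1.07) and DUSP6 at 0.51 (-0.18 to 1.19), each with its 3 treated samples above all untreated ones. The 3 treated samples of DUSP4 lay at log2 values of -1.35, -0.05 and -0.35 against the untreated mean, and its log2 fold change was -0.18 without replicate 1, the lowest of them. DUSP7 was at -0.10, with its 3 treated samples below all untreated ones. DUSP2 was at -0.20, and ran from -0.31 to -0.04 over fits that each left out 1 library. DUSP14 was at -0.00, a value that took the opposite sign, 0.00, with no filter on low counts. The median log2 fold change of the 10 genes was 0.47, against -0.0001 over all genes tested. Leaving out replicate 1 of the untreated WT cells took the genes called in either direction from 99 to 65, and 3 phosphatases passed there too.

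In S80A cells TNFα raised 3 of the 10 phosphatase genes, against 0.966% of all genes tested, by the same edgeR test. They were again DUSP8, DUSP1 and DUSP16. DUSP8 rose 2.57-fold, from 83.9 ± 18.5 to 218 ± 28.5 normalised counts (SD, n = 3 a group), a log2 fold change of 1.36 ± 0.15 (SE, interval 1.04 to 1.69). Without the library that stood apart, its log2 fold change was 1.20. DUSP1 rose 1.69-fold, from 393 ± 3.81 to 663 ± 34.8, a log2 fold change of 0.75 ± 0.08 (0.58 to 0.93), which was 0.75 without that library too. DUSP16 rose 1.50-fold, from 1034 ± 128 to 1547 ± 133, a log2 fold change of 0.58 ± 0.10 (0.38 to 0.79), or 0.59 without it. The edgeR adjusted p was 1.27e-04 for DUSP8, 8.43e-05 for DUSP1 and 0.00468 for DUSP16, and 3 of 3 treated samples lay above the untreated mean for each. Without the library that stood apart these were 1.49e-04, 2.01e-04 and 0.00712. When only the 6 S80A samples were fitted, DUSP16 no longer passed, with an adjusted p of 0.0963, and its adjusted p over the 9 alternatives ran from 4.14e-06 to 0.0963.

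The 7 other genes in S80A cells had log2 fold changes from -0.19 for DUSP4 to 0.36 for DUSP5 and DUSP10. DUSP10, the JNK and p38 phosphatase, had an interval of 0.03 to 0.69 and an edgeR adjusted p of 0.478. DUSP5 stood at 0.36 (-0.17 to 0.90), DUSP2 at 0.26 (-0.35 to 0.86) and DUSP6 at 0.18 (-0.37 to 0.73). Over fits that each left out 1 library, DUSP5 ran from 0.08 to 0.66 and DUSP6 from 0.06 to 0.32. Without the library that stood apart, DUSP4 was at -0.18, DUSP10 at 0.33, DUSP5 at 0.32, DUSP2 at 0.38, DUSP6 at 0.17, DUSP14 at -0.04 and DUSP7 at -0.12, with edgeR adjusted p values from 0.737 for DUSP10 to 0.953 for DUSP14. The DUSP2 value turned to -0.16 without replicate 1 of the treated cells, its highest sample. DUSP14 at -0.02 and DUSP7 at -0.01 lay near 0, and DUSP7 turned to 0.16 without replicate 1 of the untreated cells. The median of the 10 genes was 0.31, against -0.0019 over all genes. The genes called in either direction numbered 181, with 98 without replicate 1 of the treated and 116 without replicate 3 of the untreated S80A cells, and 3 phosphatases passed in both cases.

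**Figure D4:**
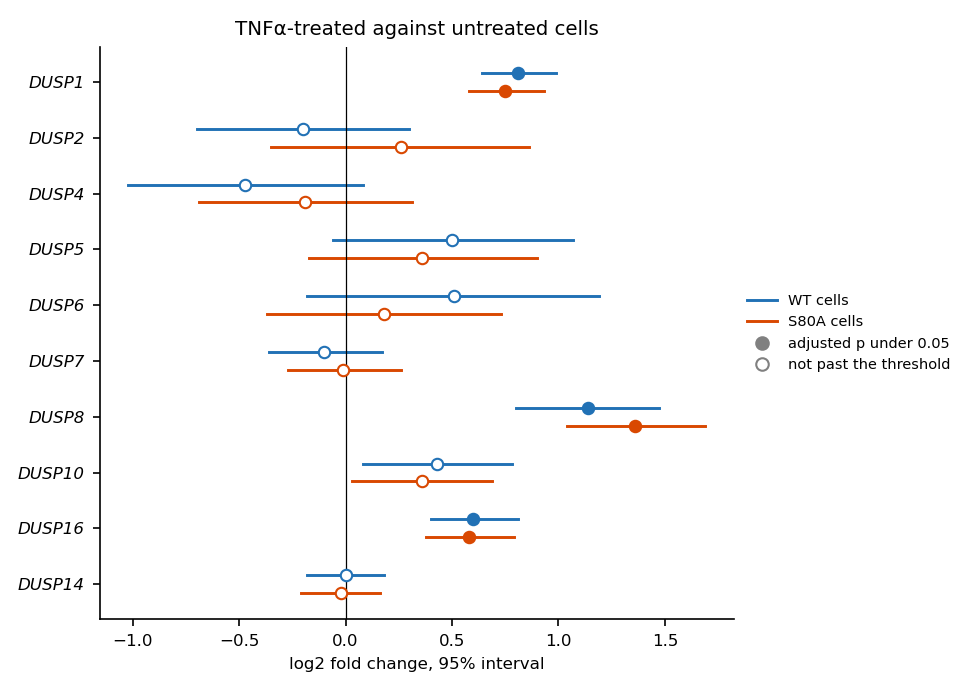
Log2 fold change of TNFα-treated against untreated cells for each of the 10 genes (x axis), in WT (blue) and S80A cells (orange), with 95% intervals. Filled circles passed an adjusted p of 0.05 in edgeR's test: DUSP1, DUSP8 and DUSP16 in both genotypes.

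Whether the response to TNFα differs between the genotypes was tested as the interaction of genotype and treatment. By edgeR's quasi-likelihood test, 0 of the 10 genes passed, as did 0% of all genes, and at an unadjusted p under 0.05 there were 0 of the 10 and 520 of all genes. DESeq2 also called 0 genes, with 0 of the 10, and 501 of the 22048 genes it gave a p, at an unadjusted p under 0.05. The response of DUSP1 in S80A cells minus that in WT cells was -0.06 on the log2 scale, with a 95% interval of -0.30 to 0.19, and -0.06 without the library that stood apart. For DUSP16 it was -0.02 (-0.31 to 0.27), and -0.01 without that library. For DUSP8 it was 0.23 (-0.24 to 0.69), and 0.06 without it. For DUSP2 it was 0.46 (-0.33 to 1.25), 0.58 without that library and 0.04 without replicate 1 of the treated S80A cells. The other 6 genes, with the value lacking the library that stood apart second, were DUSP4 at 0.28 and 0.29, DUSP5 at -0.14 and -0.18, DUSP6 at -0.32 and -0.34, DUSP7 at 0.09 and -0.02, DUSP10 at -0.07 and -0.10, and DUSP14 at -0.02 and -0.04. Their 95% intervals with all samples included 0. These intervals bound the difference in response, and a p that misses the threshold does not show equal responses.

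The next comparison asks which phosphatase genes differed between the genotypes before TNFα. In untreated cells 1 of the 10 genes passed, against 6.26% of all genes tested in either direction by edgeR. DUSP2, at chromosome 2 from 96143169 to 96145440 of GRCh38, was lower, going from 69.5 ± 9.28 normalised counts in WT to 28.6 ± 4.71 in S80A cells (SD, n = 3 a group), a 2.46-fold lower level. Its log2 fold change was -1.30 ± 0.26 (SE), with a 95% interval of -1.85 to -0.74 and an edgeR adjusted p of 0.00829, and 3 of 3 S80A samples lay below all WT samples. Without the library that stood apart it was -1.41, with an adjusted p of 0.0077. It passed in 12 of 12 fits that each left out 1 library, at -1.41 to -1.19. A count of 1 in 10 is near the share of all genes called and is not a result about the family.

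DUSP6, the cytoplasmic ERK phosphatase, had the next largest size, 1.02 (interval 0.38 to 1.66), but its edgeR adjusted p was 0.0808. It passed the filter on low counts through its S80A samples, where it was high, so this size is not independent of the filter. Its normalised counts were 6.52 ± 0.553 in WT and 13.4 ± 2.24 in S80A cells (SD, n = 3 a group). DUSP1 stood at 0.24 (0.06 to 0.42) with an edgeR adjusted p of 0.113, and passed only when each library was corrected for GC content, at 0.31 with an adjusted p of 0.0306, or 0.0276 with the replicate number as a block in addition. Over its 9 alternatives the adjusted p of DUSP1 ran from 0.0276 to 0.297. DUSP10 at 0.43 (0.08 to 0.78), DUSP16 at 0.21 (0.01 to 0.42) and DUSP14 at -0.23 (-0.41 to -0.04) had edgeR adjusted p values of 0.15, 0.236 and 0.147. DUSP4 at 0.44, DUSP5 at 0.41, DUSP7 at 0.14 and DUSP8 at 0.10 had intervals that included 0. Leaving out 1 library at a time, DUSP5 ran from 0.12 to 0.61, DUSP16 from 0.13 to 0.31 and DUSP8 from 0.01 to 0.27. DUSP7 turned to -0.03 without replicate 1 of the untreated S80A cells. Without the library that stood apart DUSP6 was at 1.03, DUSP1 at 0.24, DUSP10 at 0.46, DUSP16 at 0.20, DUSP14 at -0.21, DUSP4 at 0.43, DUSP5 at 0.46, DUSP7 at 0.25 and DUSP8 at 0.27, with edgeR adjusted p values from 0.0995 for DUSP6 to 0.392 for DUSP5. The 10 genes had a median of 0.23, against 0.0133 over all genes. All genes called, 900, were 553, 356 and 432 without replicates 1, 2 and 3 of the untreated WT cells and 527 without replicate 3 of the untreated S80A cells. The phosphatase count was 1 in each case.

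After TNFα, 0 of the 10 genes passed between the genotypes in edgeR's test, against 7.36% of all genes, while 7 of 10 had an unadjusted p under 0.05, as did 3203 of the 14383 genes tested. DESeq2 also called 0, with 6 of the 10, and 3144 of the 22048 genes it gave a p, at an unadjusted p under 0.05. DUSP2 again had the largest size, -0.84 ± 0.26 (SE, interval -1.39 to -0.29), from 60.5 ± 12.4 normalised counts in WT to 33.1 ± 13.6 in S80A cells (SD, n = 3 a group), with an edgeR adjusted p of 0.0653. It passed in 2 of 12 fits that each left out 1 library, where it ran from -1.25 to -0.67 with adjusted p values from 0.0157 to 0.207. Without replicate 1 of the treated S80A cells it passed, at -1.25 with an adjusted p of 0.0157, and without replicate 2 of the untreated S80A cells, the library that stood apart, it passed at -0.84 with 0.0443. It also passed with the replicate number as a block, at -0.86 with 0.0384, with no filter on low counts, at -0.85 with 0.0292, and with the GC correction, at -0.96 with 0.0325 or, with the block in addition, -0.98 with 0.0196. Over the 9 alternatives its adjusted p ran from 0.0196 to 0.0813. DUSP4 at 0.72 (0.18 to 1.26), DUSP6 at 0.69 (0.10 to 1.29) and DUSP8 at 0.33 (0.02 to 0.64) had edgeR adjusted p values of 0.101, 0.199 and 0.193. Here too the DUSP6 size comes from a gene that the filter kept through its S80A samples. With 1 library left out at a time, DUSP4 ran from 0.44 to 0.99. DUSP14 stood at -0.25 (-0.43 to -0.07) with 0.0948. The other 5 genes lay between 0.18 for DUSP1 and 0.36 for DUSP10, and DUSP5, at 0.28, turned to -0.01 without replicate 1 of the treated S80A cells. The median of the 10 was 0.25, against -0.0037 over all genes.

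The comparisons share samples, so values such as the sizes for DUSP2 before and after TNFα are not independent of the TNFα responses. All genes called between the treated groups, 1058, were 501 and 434 without replicates 1 and 2 of the treated WT cells, 515, 612 and 604 without replicates 1, 2 and 3 of the treated S80A cells, and 1646 without the library that stood apart.

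**Figure D5:**
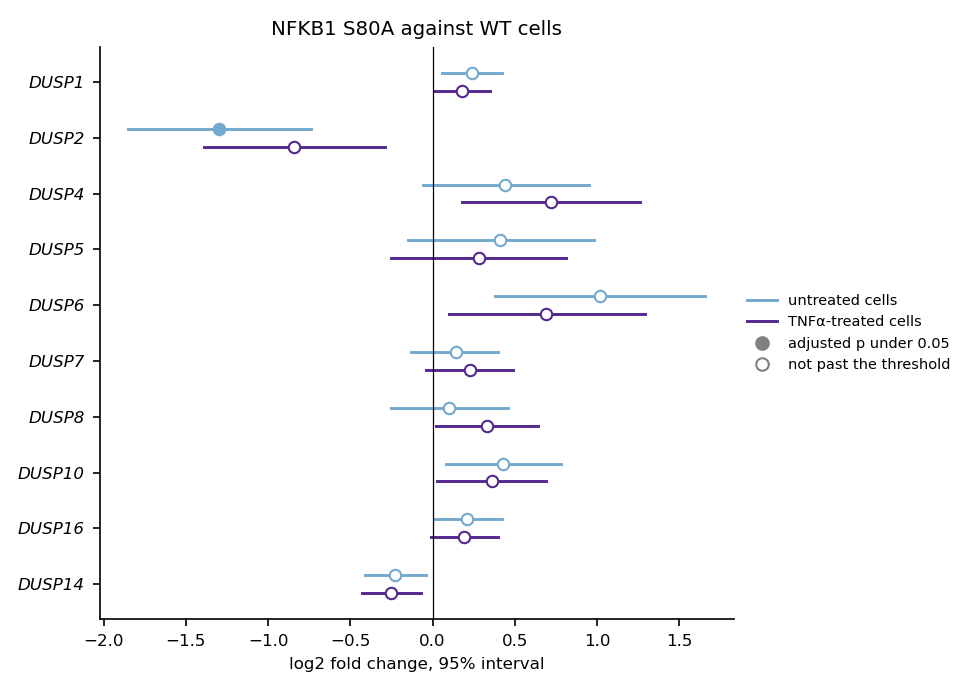
Log2 fold change of S80A against WT cells for each of the 10 genes (x axis), untreated (light blue) and after TNFα (purple), with 95% intervals. The filled circle is DUSP2 in untreated cells at -1.30, which passed an adjusted p of 0.05 in edgeR's test, and DUSP2 after TNFα, at -0.84, did not.

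Across the 12 samples, DUSP1 was most like ATF3, SDC4 and SAMD4A among 13049 genes compared by Pearson's r of log2 CPM, at 0.989, 0.987 and 0.987. DUSP8 was most like TRAF3, NFKB1 and JUNB, at 0.992, 0.981 and 0.978. DUSP16 was most like PHLDA1, JAK1 and SIX4, at 0.958, 0.943 and 0.938. Between the members themselves, r was 0.953 for DUSP1 and DUSP8, 0.936 for DUSP1 and DUSP16 and 0.891 for DUSP8 and DUSP16. With DUSP1, DUSP8 and DUSP16 in that order, DUSP10 had r of 0.781, 0.719 and 0.814, DUSP5 0.667, 0.640 and 0.436, and DUSP6 0.577, 0.454 and 0.491. DUSP7 had 0.012, 0.083 and -0.179, DUSP2 -0.216, -0.139 and -0.373, DUSP4 -0.257, -0.257 and -0.128, and DUSP14 -0.264, -0.141 and -0.429. The 12 samples fall into 4 groups that differ in treatment and genotype, so these values describe likeness of pattern and carry no test.

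Kinases on which these phosphatases act, and kinases above them, were read from a list of 26 genes. MAPK3, which encodes an ERK kinase, stood at a log2 fold change of -0.07 with TNFα in WT cells and at 0.09 in S80A cells. MAPK8 and MAPK9, which encode JNK kinases, stood at 0.16 and 0.00 in WT and -0.01 and -0.09 in S80A cells. MAPK14, which encodes a p38 kinase, stood at -0.02 in WT and -0.07 in S80A cells. In each genotype edgeR called 0 of these 4 kinase genes, with 0 at an unadjusted p under 0.05, and DESeq2 gave 0 and 0 too. Of the 26 kinases, 1 rose with TNFα in WT cells, where 0.577% of all genes tested were called higher. It was MAP3K8, a kinase upstream of ERK that is known to be held by the NFKB1 precursor, at 1.20 ± 0.13 (SE) with an edgeR adjusted p of 8.35e-05. In S80A cells MAP3K8 rose by 1.49 ± 0.13 with 1.19e-05, and MAP2K6, an activator of p38, fell by 0.65 ± 0.14 with an adjusted p of 0.0321. In WT cells MAP2K6 stood at -0.52 (interval -0.79 to -0.26) with an edgeR adjusted p of 0.0982, while DESeq2 called 2 of the 26 kinases there, MAP3K8 and MAP2K6, the latter at -0.53 with an adjusted p of 0.0182. Its interaction, -0.12 in edgeR, did not pass. In S80A cells MAP2K6 did not pass edgeR's test without the library that stood apart, at -0.60 with 0.088. The median log2 fold change of the list was -0.02 in WT and 0.01 in S80A cells.

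Of 23 other feedback and output genes of the ERK and AP-1 pathways tested, from a list of 26, 6 rose with TNFα in WT cells, against 0.577% of all genes tested. The 5 largest were IER3 at a log2 fold change of 3.18, JUNB at 1.78, PHLDA1 at 1.30, ATF3 at 1.02 and JUN at 0.88, with edgeR adjusted p values of 1.40e-10, 8.33e-07, 0.00625, 7.54e-05 and 6.46e-05. In S80A cells 6 of 23 rose and 1 fell, against 0.966% and 0.292% of all genes. IER3 stood at 3.49, JUNB at 2.43, PHLDA1 at 1.24 and ATF3 at 0.91, and ETV1, an ETS factor known as an ERK output, fell by 0.83 with an edgeR adjusted p of 0.0478. ETV1 was at -0.85 and did not pass without the library that stood apart, with 0.0847, and DESeq2 did not call it with all samples, at -0.83 with 0.0896. In WT cells it stood at -0.10, and its interaction, -0.73 (-1.32 to -0.13), did not pass. The medians were 0.12 in WT and 0.27 in S80A cells. None of the SPRY, SPRED, EGR or FOS genes tested from the list passed with TNFα in either genotype, by edgeR or DESeq2. By DESeq2 SPRY2 stood at -0.18 in WT and -0.38 in S80A cells, and SPRED2 at 0.38 and 0.36. Of 12 other dual-specificity phosphatases tested from a list of 16, edgeR called 0 with TNFα in either genotype, with 0 in WT and 1 in S80A cells at an unadjusted p under 0.05, and DESeq2 called 0 in both. The median of these 12 was -0.01 in each genotype. Of 7 other phosphatases that act on MAP kinases, tested from a list of 9, edgeR called 0 in either genotype, with 1 and 0 at an unadjusted p under 0.05, and DESeq2 called 0.

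As a check of the treatment labels, 5 of 6 known NF-κB targets tested, from a list of 7, rose with TNFα in WT and 6 of 6 in S80A cells, against 0.577% and 0.966% of all genes in edgeR's test. In WT cells IL8 stood at a log2 fold change of 5.76, RELB at 5.15, NFKBIA at 3.52, TNFAIP3 at 3.14 and NFKB2 at 2.16, with edgeR adjusted p values from 1.58e-11 to 4.63e-05. The IL8 value rests on 0, 2 and 0 reads in the 3 untreated WT samples, so its size and place above RELB are uncertain. IL8 and BIRC3 passed the filter on low counts through their treated samples. ICAM1, the remaining gene of the list, had 0 to 6 reads per sample and was left out by the filter. BIRC3, at 1.45 with 0.283, did not pass. In S80A cells RELB stood at 5.47, IL8 at 5.34, TNFAIP3 at 3.86, NFKBIA at 3.66, BIRC3 at 2.30 and NFKB2 at 2.25, with edgeR adjusted p values from 6.55e-12 to 0.022. The list medians were 3.33 and 3.76. Without the library that stood apart 5 of 6 rose in S80A cells, as BIRC3 went from 2.30 with an edgeR adjusted p of 0.022 to 2.08 with 0.061. Between untreated genotypes edgeR called 0 of the 6, with 2 at an unadjusted p under 0.05, and DESeq2 called 0. After TNFα 4 were higher in S80A cells, against 2.92% of all genes: IL8 at 2.06, TNFAIP3 at 0.68, RELB at 0.57 and NFKBIA at 0.39, with edgeR adjusted p values of 1.36e-04, 0.00422, 0.00401 and 0.0128. NFKB2, at 0.25 with 0.0734, did not pass, and without the library that stood apart it passed, at 0.25 with 0.0403. DESeq2 called 5 of the 6 with all samples, with NFKB2 at 0.26 and an adjusted p of 0.028. For the interaction edgeR and DESeq2 called 0 of the 6, with 1 at an unadjusted p under 0.05 in each.

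Between the genotypes, 4 of the 23 ERK and AP-1 genes were higher in untreated S80A cells, against 2.05% of all genes tested. ETV5 stood at 1.73 ± 0.29 (SE), SPRY2, a feedback inhibitor of ERK signalling, at 0.79 ± 0.11, ETV1 at 0.79 ± 0.19 and JUND at 0.47 ± 0.11, with edgeR adjusted p values of 0.00271, 5.25e-04, 0.0221 and 0.0167. After TNFα 6 were higher, against 2.92% of all genes, the 5 largest being ETV5 at 1.94, FOSB at 1.33, JUNB at 0.60, SPRY2 at 0.58 and JUND at 0.54, with edgeR adjusted p values of 8.33e-04, 0.0285, 0.00447, 0.00513 and 0.00601. The list median was 0.20 in each.

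Among all genes tested by edgeR, 2.05% were higher and 4.21% lower in untreated S80A cells, and 2.92% and 4.44% after TNFα. Of the 26 kinases, untreated S80A cells had MAPK11, a p38 kinase, higher at 0.65, and MAP2K6, MAPK7 and MAP2K3 lower at -0.90, -0.43 and -0.40, with edgeR adjusted p values from 7.85e-04 to 0.028. After TNFα 3 were higher and 4 lower, the 5 largest being MAP2K6 at -1.03, MAPK11 at 0.59, MAP2K5 at 0.37, MAPK7 at -0.35 and MAPK8 at -0.34, with edgeR adjusted p values from 4.46e-04 to 0.0436. MAP3K3 was lower too without the library that stood apart, at -0.25 with an edgeR adjusted p of 0.0389. DUSP3 and DUSP9, other dual-specificity phosphatases, were lower in untreated S80A cells at -0.34 and -0.35 with edgeR adjusted p values of 0.0144 and 0.0241. DUSP9 did not pass without that library, at -0.31 with 0.052. After TNFα edgeR called 0 of those 12, with 1 at an unadjusted p under 0.05, and DESeq2 called 0, while without that library DUSP3 passed at -0.23 with an edgeR adjusted p of 0.0469. PPM1D, a phosphatase that acts on p38, was lower at -0.34 untreated and -0.41 treated, with edgeR adjusted p values of 0.0199 and 0.007. For the interaction, edgeR and DESeq2 called 0 genes of each of these lists, and at an unadjusted p under 0.05 edgeR found 2 kinases, 3 ERK and AP-1 genes, 0 other dual-specificity phosphatases and 1 other MAP kinase phosphatase.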

How the data were processed

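RNA was measured in 12 samples, and the authors deposited raw read counts per gene symbol, from poly(A)-selected 75 bp single-end reads aligned to GRCh38 with HISAT and counted with HTSeq-count. Their deposited lists of called genes for TNFα in each genotype, which hold fold changes, p-values and normalised values, were not used, since they cover called genes alone. Samples were mapped by their titles, and all 12 count columns matched 1 sample each. Of 33121 genes, 28 whose symbols and counts in 2 samples had become dates were left out. Library totals ran from 15624878 to 20889577, and counting error limits genes with few reads, such as DUSP6.

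Counts were fitted in R 4.3.3 with edgeR 4.0.16 and limma 3.58.1: filterByExpr with a minimum count of 10 (14383 genes), TMM scaling, 1 mean for each of the 4 groups over all 12 samples, the quasi-likelihood F test, and Benjamini-Hochberg adjustment over all genes tested with a threshold of 0.05. The comparisons were TNFα against untreated cells in each genotype, S80A against WT cells under each condition, and their interaction. The standard error is the size of the log2 fold change divided by the square root of F, and the 95% interval is the log2 fold change plus or minus a t quantile times it. For DUSP6, which had few reads, edgeR's p was larger than such an interval implies, so its intervals are too narrow. To give normalised counts, each count was scaled to the mean TMM-adjusted library size. CPM per kb divides by the length of the canonical transcript, and log2 CPM used a prior count of 2. The fits were tested on simulated data. Tables, sequences and figures used Python 3.11.15 with pandas 2.3.3, numpy 2.4.6 and matplotlib 3.10.9. Upstream sequence came from RefSeq (GRCh38.p14).

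The 10 phosphatase genes and the lists (MAP kinase cascade kinases, other ERK and AP-1 genes, other dual-specificity phosphatases, other MAP kinase phosphatases, markers, stress genes and NF-κB targets) were chosen with earlier results of these data known. Named genes are the 10 phosphatases, every list gene past the threshold or the 5 largest where over 5 passed, and MAPK3, MAPK8, MAPK9 and MAPK14 with TNFα. The kinase list, as reported, holds 26 genes and leaves out some of those first chosen. Genes most alike were the 3 with the highest Pearson r among those with a mean of at least 1 CPM. The alternatives were a block for the replicate number, DESeq2 1.42.0, scaling by its size factors or by total counts, a filter of 10 counts in each sample or none, fitting the 6 compared samples alone, and omitting every sample once. A GC correction of each library, alone or together with the block, was chosen after seeing the data. A GC value was available for 12716 genes, 88.4% of those tested.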

Additional observations from a re-analysis of the deposited data

How the results depend on the processing

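DUSP1 and DUSP8 passed with TNFα in both genotypes, DUSP16 in WT cells and DUSP2 between untreated genotypes under 9 of 9 alternatives and 12 of 12 omissions of 1 library. DUSP16 in S80A cells passed under 8 of 9 and 12 of 12, failing with only the 6 samples compared (0.58, adjusted p = 0.0963). With the GC correction, alone or with the replicate block, 2 phosphatase genes passed between untreated genotypes. Between treated genotypes 1 passed with no filter, with the block and with either GC correction, and omissions gave 0 to 1. The cause of these differences was not tested. DUSP6 was not tested with at least 10 counts in every sample, nor in WT cells alone. Low counts limit DUSP2, DUSP4, DUSP5, DUSP6 and DUSP10. Samples that share a replicate number had deviations from their group mean with a mean r of 0.118, against -0.059 for different numbers, and 4 of 12 samples were closest to their own number. In the 4 comparisons r was 0.212, 0.495, 0.338 and 0.251 for replicate 1 and ran from -0.099 to 0.109 for the others. The cause of the difference between replicate numbers was not tested.

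All genes called with TNFα numbered 154 by DESeq2 in WT cells. In S80A cells they numbered 71 with only the 6 samples compared and 278 with the GC correction and block. Between untreated genotypes these settings gave 456 and 1535. Omissions gave 65 to 145 and 98 to 193 with TNFα in WT and S80A cells, and 356 to 1039 and 434 to 1646 between untreated and treated genotypes.

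Some values that did not pass changed sign. DUSP14 with TNFα in WT cells was 0.00 with no filter, and the DUSP7 interaction was -0.03 with the GC correction and -0.03 with the block in addition. Over the omissions, DUSP14 with TNFα ran from -0.04 to 0.03 in WT and from -0.08 to 0.05 in S80A cells. DUSP2 and DUSP7 with TNFα in S80A cells ran from -0.16 to 0.42 and from -0.12 to 0.16. DUSP7 between untreated genotypes ran from -0.03 to 0.25, and DUSP5 between treated genotypes from -0.01 to 0.44. Interactions ran from -0.01 to 0.55 for DUSP4, -0.43 to 0.16 for DUSP5, -0.03 to 0.25 for DUSP7, -0.16 to 0.04 for DUSP10, -0.08 to 0.06 for DUSP14 and -0.12 to 0.06 for DUSP16.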
